A study of Danio rerio with 8 samples.

Results

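The libraries described here compare the anterior with the posterior trunk of zebrafish embryos that carry the p162 allele on both copies of foxc1a, which encodes a forkhead transcription factor. They are 4 of the 8 RNA-seq libraries of the series and were chosen by their titles, 2 from anterior pieces (MUT_AS) and 2 from posterior pieces (MUT_PS). Embryos were 38 to 40 hours old, and all pieces lacked head and yolk. Anterior pieces held somitic segments 1 to 6, through which nerves grow to the pectoral fin, and posterior pieces held segments 7 to about 12, outside the path of those nerves. The other 4 libraries come from siblings dissected in the same way (SIB_AS and SIB_PS). Their labels give the genotype as heterozygous for p162, while the design text calls them wild type. The study's title concerns a requirement for foxc1a in the wiring of the fin, and the regional comparison asks which transcripts set the fin nerve territory apart from its neighbour when foxc1a is mutated. The labels give no number of embryos per library and no clutch, so every p-value measures only the spread between libraries, which may be technical. The replicates are called 1 and 3 after the titles, and values are given in that order.

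Somites are blocks of mesoderm that form muscle, cartilage and tendon in series along the trunk. Their position is recorded by the hox genes, which lie in clusters and are used in order, low-numbered paralog groups nearer the head and high-numbered groups nearer the tail. Retinoic acid, made in the anterior trunk mesoderm, helps to place the boundary of the hindbrain and starts the pectoral fin bud. Motor axons that leave the spinal cord read ligands such as semaphorins, slits, netrins and ephrins through receptors on the growth cone. foxc1a and its paralog foxc1b are used in paraxial mesoderm and in the mesenchyme around vessels.

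The deposited levels are log2(RPKM + 1), where RPKM is the number of reads divided by the length of the transcript and by the library's mapped reads, and the table holds no counts. Read numbers could be compared only from the smallest steps of the values, up to a factor of 2. By that measure MUT_AS replicate 3 was sequenced 41.4 or 82.7 times less deeply than MUT_AS replicate 1, and at least 5.94 times less deeply than either MUT_PS library. It lists 17.5% of transcripts at 0, against 4.69% in MUT_AS replicate 1 and 6.99% to 7.72% in MUT_PS. On the log2 scale, replicates spread with a standard deviation of 0.363 in MUT_AS and 0.195 in MUT_PS. The tests used the 4 mutant libraries alone, in limma, over the 10889 transcripts whose mean was 1 RPKM or more. That mean covers all 8 libraries. A transcript near 0 in MUT_PS therefore entered through its anterior values and could hardly be called lower. The reverse holds for transcripts near 0 in MUT_AS. This applies to the list members below.

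Many of the tested transcripts differed between the anterior and posterior pieces. In limma 4692 of 10889 transcripts (43.1%) had a Benjamini-Hochberg adjusted p under 0.05, 3821 higher in MUT_AS (35.1%) and 871 lower (8%). The median difference over all transcripts was 0.41 on the log2 scale, MUT_AS minus MUT_PS, so changes are best read relative to it. After the libraries were scaled to one median, 3256 transcripts passed (29.9%), of which 1491 were higher (13.7%) and 1765 lower (16.2%). That scaling moved the median difference to 0, so it could hardly remove a call lower in MUT_AS, and all 871 were kept. The counts of every gene list below are to be read beside these shares of all transcripts, as deposited and after median scaling. The transcripts called in the same direction both ways number 2362 (21.7%), 1491 higher and 871 lower in MUT_AS. Of these, 443 were higher and 490 lower by at least 1 log2 unit under both scalings. All 2362 kept their sign when any 1 mutant library was left out, which their selection as called in these libraries made nearly certain. With MUT_PS replicate 1 or 3 left out 817 and 814 of them stayed called under both scalings, and with MUT_AS replicate 1 or 3 left out 2295 and 2333 did. When a MUT_PS library is left out, the wide MUT_AS pair is the only estimate of the spread.

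The mutated gene itself was transcribed in both regions and was higher anteriorly. foxc1a (NM_131728) stood at 19.3 and 16.3 RPKM in MUT_AS, against 9.02 and 7.74 RPKM in MUT_PS (log2 difference 1.0, SE 0.20, limma adjusted p = 0.00758). Its difference after median scaling was 0.55 (adjusted p = 0.0586), and without MUT_PS replicate 3 the adjusted p as deposited was 0.0873. foxc1b (NM_131729) stood at 16.1 and 14.8 RPKM in MUT_AS, against 5.43 and 5.53 RPKM in MUT_PS (1.34, SE 0.18, adjusted p = 0.0033, and 0.91 with adjusted p = 0.0122 after median scaling). The groups did not overlap for either gene, but 57.2% of all tested transcripts had both MUT_AS libraries above both MUT_PS libraries. With the transcript detected in all mutant libraries, its level is no check of the genotype.

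The hox genes divided by paralog group. All 8 tested members of groups 4 and 5 were called higher in MUT_AS, under both scalings, with a median difference of 3.01 as deposited and 2.57 after median scaling. Of 10 tested members of groups 1 to 3, 7 were higher and 0 lower (median 1.68, or 1.21 after median scaling). Of 8 in groups 9 and 10, 0 were higher and 7 lower (median -1.93, or -2.39), and after median scaling all 8 were lower. The lists of groups 11 to 13 held 13 genes of the table, of which 5 reached the minimum level, and 3 of those were lower.

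The steepest anterior differences among hox genes lay in groups 4 to 6. hoxb4a (NM_131118) stood at 72.9 and 66.7 RPKM in MUT_AS, against 4.02 and 5.02 RPKM in MUT_PS, a ratio of means of 15.4 (log2 difference 3.69, SE 0.20, adjusted p = 0.000701). hoxb5b stood at 71.9 and 66.4 RPKM in MUT_AS, against 2.98 and 5.35 RPKM in MUT_PS (3.80, SE 0.25, adjusted p = 0.00151). hoxc5a, hoxd4a and hoxc4a were also among the 15 genes with the largest anterior difference, at 3.2, 3.06 and 2.96. In group 6, hoxb6b had 63.0 and 64.3 RPKM in MUT_AS, against 7.51 and 9.51 RPKM in MUT_PS (2.77, SE 0.20). Every MUT_AS value of these genes was several times every MUT_PS value.

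Groups 1 to 3, used in the hindbrain and pharyngeal arches, were less uniform. hoxb3a stood at 119 and 83.3 RPKM in MUT_AS, against 23.4 and 23.7 RPKM in MUT_PS (2.03, SE 0.22, adjusted p = 0.00267). hoxb1a, a marker of a single hindbrain segment, stood at 19.0 and 7.78 RPKM in MUT_AS, against 1.6 and 2.09 RPKM in MUT_PS (2.22, SE 0.37, adjusted p = 0.00509). hoxc3a had 40.3 and 60.6 RPKM in MUT_AS, against 51.5 and 47.9 RPKM in MUT_PS, a difference of -0.01 (adjusted p = 0.986). Its groups overlapped, unlike those of the other 9 members, all of which had both MUT_AS libraries above both MUT_PS libraries. The same order held for 57.2% of all tested transcripts.

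The switch of direction fell within groups 6 to 9. Of 8 tested members of groups 6 to 8, 6 were higher and 0 lower (median 1.08), and 4 and 2 after median scaling (median 0.61), while without MUT_AS replicate 3 the number lower as deposited was 2. hoxb8a and hoxb8b were called higher as deposited, by 0.76 and 0.74, and not after median scaling (adjusted p = 0.257 and 0.266). Their calls as deposited were also lost without MUT_PS replicate 1 (adjusted p = 0.08 and 0.134) or replicate 3 (0.2 and 0.17). hoxb7a and hoxc8a differed by -0.53 and -0.40, short of a call as deposited, and were called lower after median scaling (adjusted p = 0.0108 and 0.0194). hoxb9a had 75.1 and 77.0 RPKM in MUT_AS, against 119 and 102 RPKM in MUT_PS, a difference of -0.53 with adjusted p = 0.0512 as deposited and 0.00727 after median scaling.

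Beyond hoxb9a the genes of groups 9 to 11 fell in MUT_AS. hoxc9a stood at 10.3 and 11.4 RPKM in MUT_AS, against 56.1 and 46.1 RPKM in MUT_PS (log2 difference -2.13, SE 0.20, adjusted p = 0.00242). hoxb10a stood at 3.02 and 3.86 RPKM in MUT_AS, against 28.7 and 25 RPKM in MUT_PS (-2.65, SE 0.20, adjusted p = 0.00151). hoxc11a had 0.0592 RPKM and a listed 0 in MUT_AS, against 4.77 and 3.15 RPKM in MUT_PS. hoxa11b differed by -2.26 and hoxd11a by -1.13, the call of hoxd11a being lost without MUT_PS replicate 1 (adjusted p = 0.192).

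**Figure D1:**
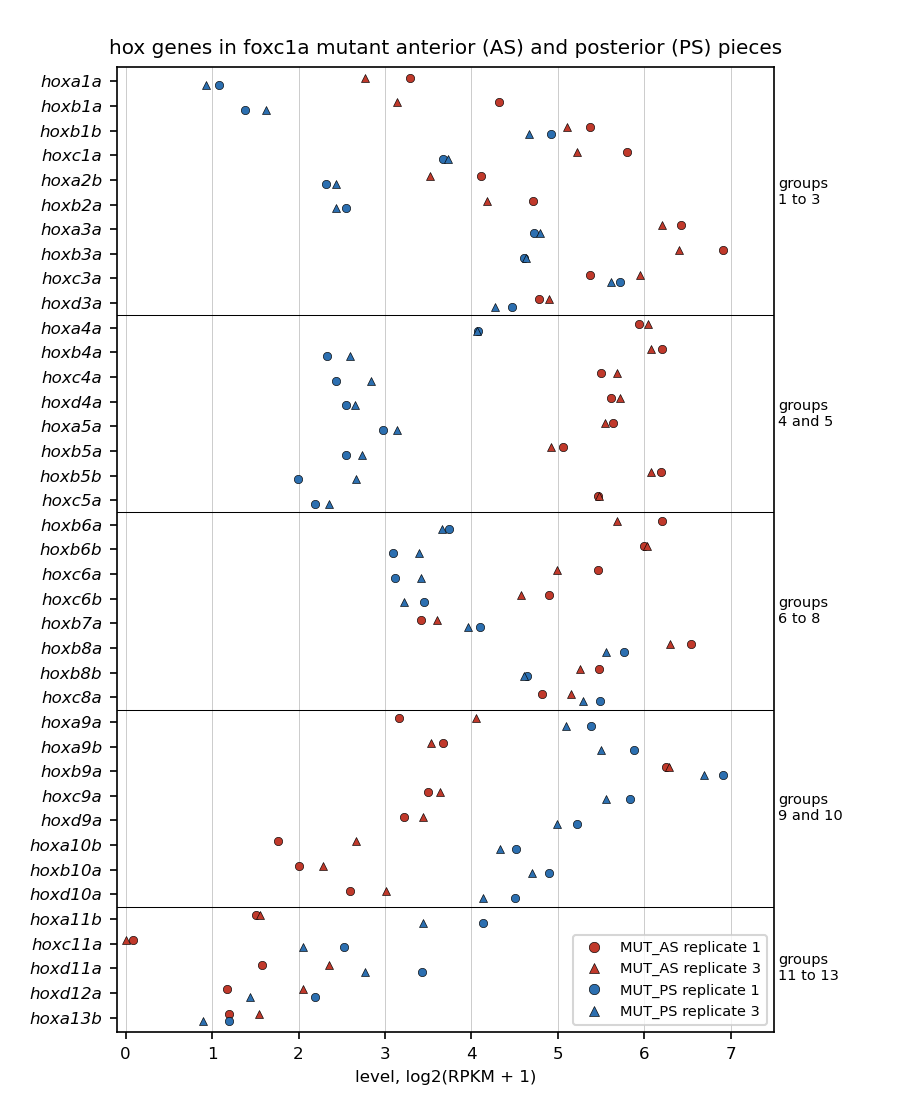
Levels of the tested hox genes as log2(RPKM + 1) in the 4 mutant libraries, ordered from low to high paralog groups down the page, with MUT_AS points just above the MUT_PS points of the same gene. MUT_AS lies far to the right in groups 4 and 5, where the median difference is 3.01. MUT_AS and MUT_PS draw together around hoxb8a and hoxb9a. MUT_AS lies to the left for genes such as hoxa9a, hoxc9a, hoxb10a and hoxa11b, while hoxd12a and hoxa13b, at -0.20 and 0.33, had no call.

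Genes of retinoic acid handling were mostly higher anteriorly. Of 22 tested (27 in the table), 14 were called higher and 1 lower (median 0.98), and after median scaling 9 were higher and 1 lower (median 0.52). As deposited but without MUT_PS replicate 3, 9 were higher and 0 lower. Among the receptors, rarga stood at 38.6 and 27.7 RPKM in MUT_AS, against 3.51 and 5.41 RPKM in MUT_PS (2.65, SE 0.25, adjusted p = 0.00262). The partner receptor rxrga stood at 14.5 and 11.6 RPKM in MUT_AS, against 0.866 and 1.48 RPKM in MUT_PS (2.7, SE 0.24). crabp1b, which binds retinoic acid in the cytoplasm, differed by 2.27 (SE 0.18). aldh1a2, the enzyme that makes retinoic acid in the trunk mesoderm, had 27.7 RPKM in both MUT_AS libraries, against 12.1 and 11.9 RPKM in MUT_PS (1.14, adjusted p = 0.00434, and 0.0259 after median scaling).

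All 3 cyp26 enzymes, which break retinoic acid down, were higher too. cyp26a1 had 26.3 and 22 RPKM in MUT_AS, against 5.18 and 6.29 RPKM in MUT_PS (1.90, SE 0.20, adjusted p = 0.00267). cyp26b1 and cyp26c1, used in the hindbrain, differed by 2.77 and 2.71, but their MUT_PS replicates spread widely, at 0.939 and 3.2 RPKM for cyp26b1 and 0.310 and 2.07 RPKM for cyp26c1. Without MUT_AS replicate 1 or 3 their calls were lost (adjusted p = 0.099 and 0.0654 for cyp26b1, 0.143 and 0.122 for cyp26c1). The member called lower was rbp4, the retinol carrier of blood made by the liver, with 111 and 141 RPKM in MUT_AS, against 260 and 277 RPKM in MUT_PS (-1.09, adjusted p = 0.00638, and 0.0527 without MUT_PS replicate 3).

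The pectoral fin bud lies beside the anterior segments, and its first marker was close to absent posteriorly. tbx5a, the T-box gene that starts the bud, had 3.23 and 3.55 RPKM in MUT_AS, against a listed 0 and 0.0410 RPKM in MUT_PS (log2 difference 2.10, SE 0.24, adjusted p = 0.00275). fgf10a, the growth factor of bud mesenchyme, had 7.37 and 6.6 RPKM in MUT_AS, against 2.40 and 2.49 RPKM in MUT_PS (1.21, SE 0.20, adjusted p = 0.00503, and 0.0221 after median scaling). fgf24, which acts just before fgf10a, had 3.01 and 1.81 RPKM in MUT_AS, against 0.763 and 0.461 RPKM in MUT_PS. It was called as deposited (1.07, adjusted p = 0.0202), but not after median scaling (0.0577) and not without MUT_PS replicate 1 or 3 (0.0893 and 0.189). shha, which patterns the bud and is also made by notochord and floor plate, differed by 0.39 (adjusted p = 0.121).

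Of the 22 tested fin genes (26 in the table), 11 were called higher and 3 lower (median 0.73), against 35.1% and 8% of all transcripts. After median scaling 4 were higher and 3 lower (median 0.27), near the 13.7% and 16.2% of all transcripts. As deposited, 6 were higher without MUT_PS replicate 1 and 4 without replicate 3. The 3 lower ones are the actinodins, which encode the stiff fibres of fin folds. and1 stood at 0.949 and 1.04 RPKM in MUT_AS, against 30.4 and 34.3 RPKM in MUT_PS, a ratio of means of 32.6 in favour of MUT_PS (log2 difference -4.06, SE 0.19, adjusted p = 0.000506). and3 had 0.518 RPKM and a listed 0 in MUT_AS, against 18.8 and 21.5 RPKM in MUT_PS, and and2 had 1.43 and 2.47 RPKM against 11.3 and 12.6 RPKM. These genes mark the median fin fold as well as the paired fin.

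Several markers of organs that lie outside the somites separated the pieces sharply, and the anterior pieces carried RNA of genes known from pancreas, ear, hindbrain and pharyngeal arches. In bulk RNA, fewer cells of a type and less RNA per cell cannot be told apart. In the pancreas list 13 of 31 genes of the table reached the minimum level. Of these, 11 were called higher in MUT_AS and 0 lower (median 2.40), and 8 and 0 after median scaling (median 2.11). Among the called genes, mnx1, isl1, pax6b and nkx2.2a are also in the motor neuron or spinal progenitor lists. The endocrine genes arxa (-0.02) and sst1.1 (0.24) had no call, and no digestive enzyme gene of the list reached the minimum level. ptf1a, a regulator of exocrine pancreas and of hindbrain neurons, had 17.8 and 12.5 RPKM in MUT_AS, against 0.758 and 1.15 RPKM in MUT_PS (3.03, SE 0.25, adjusted p = 0.00173). pdx1, the regulator that founds the pancreas, had 5.15 and 7.44 RPKM in MUT_AS, against 0.125 and 0.473 RPKM in MUT_PS (2.48, SE 0.27). Both genes were well separated in every library, but 57.2% of all tested transcripts had both MUT_AS libraries above both MUT_PS libraries.

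The islet hormones sst2, ins and gcgb had the largest differences of the pancreas list, with MUT_PS replicates far apart. sst2, a somatostatin, had 61.2 and 58.1 RPKM in MUT_AS, against a listed 0 and 2.72 RPKM in MUT_PS, the largest anterior difference of any named gene (4.97, SE 0.56, adjusted p = 0.00311). ins, insulin, had 41.6 and 31.7 RPKM in MUT_AS, against 0.444 and 6.50 RPKM in MUT_PS (3.50, SE 0.76, adjusted p = 0.0179, and 0.0482 after median scaling). gcgb, a glucagon, had 27.2 and 27.9 RPKM in MUT_AS, against 0.234 and 6.21 RPKM in MUT_PS (3.26, SE 0.80, adjusted p = 0.0259, and 0.0719 after median scaling). MUT_PS replicate 3 was the higher of the MUT_PS pair for these 3 genes. None of their MUT_PS values reached a MUT_AS value, an order that 57.2% of all tested transcripts shared. The related genes gcga (2.40, adjusted p = 0.0067) and sst1.1 (0.24, adjusted p = 0.392) differed less. Without MUT_AS replicate 1 or 3 the calls of sst2, ins and gcgb were lost, with adjusted p = 0.211 and 0.197 for sst2, 0.373 and 0.33 for ins, and 0.398 and 0.39 for gcgb.

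Genes of the inner ear were also called higher more often than lower. In that list 12 of 20 tested genes were called higher and 1 lower (median 0.99), and 9 and 1 after median scaling. stm, the starmaker protein of otoliths, had 61.0 and 33.0 RPKM in MUT_AS, against 1.09 and 4.82 RPKM in MUT_PS (3.72, SE 0.49, adjusted p = 0.00328). otomp, another otolith matrix protein, had 27.2 and 12.2 RPKM in MUT_AS, against 0.121 and 2.01 RPKM in MUT_PS (3.39, SE 0.52, adjusted p = 0.00424). Without MUT_AS replicate 1 or 3 the adjusted p was 0.224 and 0.167 for stm and 0.227 and 0.155 for otomp. atoh1a, needed for hair cells and for cerebellar and hindbrain neurons, had 25.6 and 19.7 RPKM in MUT_AS, against 1.74 and 3.05 RPKM in MUT_PS (2.82, adjusted p = 0.00232). The lower member was pvalb9, a parvalbumin, at -1.25. Ear genes with no call included oc90 (0.42, adjusted p = 0.142), dlx3b (0.23) and six1b (0.26).

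Regulators of brain and hindbrain were nearly all higher in MUT_AS although heads had been removed. Of 32 tested genes (40 in the table), 26 were called higher and 0 lower (median 1.47), and 22 higher and 1 lower after median scaling (median 1.09). As deposited but without MUT_PS replicate 3, 17 were higher, and with either MUT_AS library left out 1 was lower. lhx9 had 9.65 and 7.77 RPKM in MUT_AS, against a listed 0 and 0.571 RPKM in MUT_PS (2.95, SE 0.28, adjusted p = 0.0025). eng2b, a midbrain and hindbrain boundary gene, had 3.81 and 7.29 RPKM in MUT_AS, against 0.0766 and 0.203 RPKM in MUT_PS (2.47, SE 0.31). phox2bb, of cranial motor and visceral neurons, had 3.65 and 7.76 RPKM in MUT_AS, against a listed 0 and 0.222 RPKM in MUT_PS (2.53, SE 0.34). lhx9, eng2b and phox2bb reached the minimum level through their anterior values, so they could hardly be called lower. The gene lower after median scaling was mafbb (adjusted p = 0.0124). Several of these genes are also used in spinal interneurons, and the part of brain tissue in the differences was not tested.

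Among genes of pharyngeal arches and cartilage, calls went in both directions. tbx1 had 21.4 and 12.7 RPKM in MUT_AS, against 0.326 and 1.52 RPKM in MUT_PS (3.26, SE 0.37, adjusted p = 0.00267). barx1, of arch mesenchyme, had 12.9 and 11.5 RPKM in MUT_AS, against 0.0971 and 0.771 RPKM in MUT_PS (3.24, SE 0.27, adjusted p = 0.00181). In the list of arch and cartilage genes 11 of 29 tested were higher and 5 lower (median 0.47), and 5 and 6 after median scaling. As deposited the share higher is close to the 35.1% of all transcripts called higher, with the median of all at 0.41. Of all transcripts 8% were lower as deposited, and 13.7% were higher and 16.2% lower after median scaling. Arch genes with no call included dlx5a (0.16), dlx6a (0.79), edn1 (0.47) and gcm2 (0.40). The number higher as deposited was 17 without MUT_AS replicate 3 and 6 without either MUT_PS library, and the number lower was 1 without MUT_PS replicate 1 and 0 without replicate 3. The lower members were pax9, the chondromodulin lect1 and the collagens col2a1a, col11a1a and col11a2, at -0.61 to -0.84. Without MUT_PS replicate 3 the adjusted p was 0.255 for pax9, 0.391 for lect1, 0.336 for col2a1a, 0.218 for col11a1a and 0.244 for col11a2. Without MUT_PS replicate 1 it was 0.324 for pax9, 0.0531 for lect1, 0.0589 for col2a1a and 0.0657 for col11a1a, and col11a2 alone of these 5 kept its call. Another cartilage collagen of the list was higher. zgc:194937, whose current symbol is col9a1a, had 6.48 and 3.02 RPKM in MUT_AS, against 0.35 and 0.601 RPKM in MUT_PS (1.90, SE 0.33, adjusted p = 0.00532, and 0.0114 after median scaling).

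**Figure D2:**
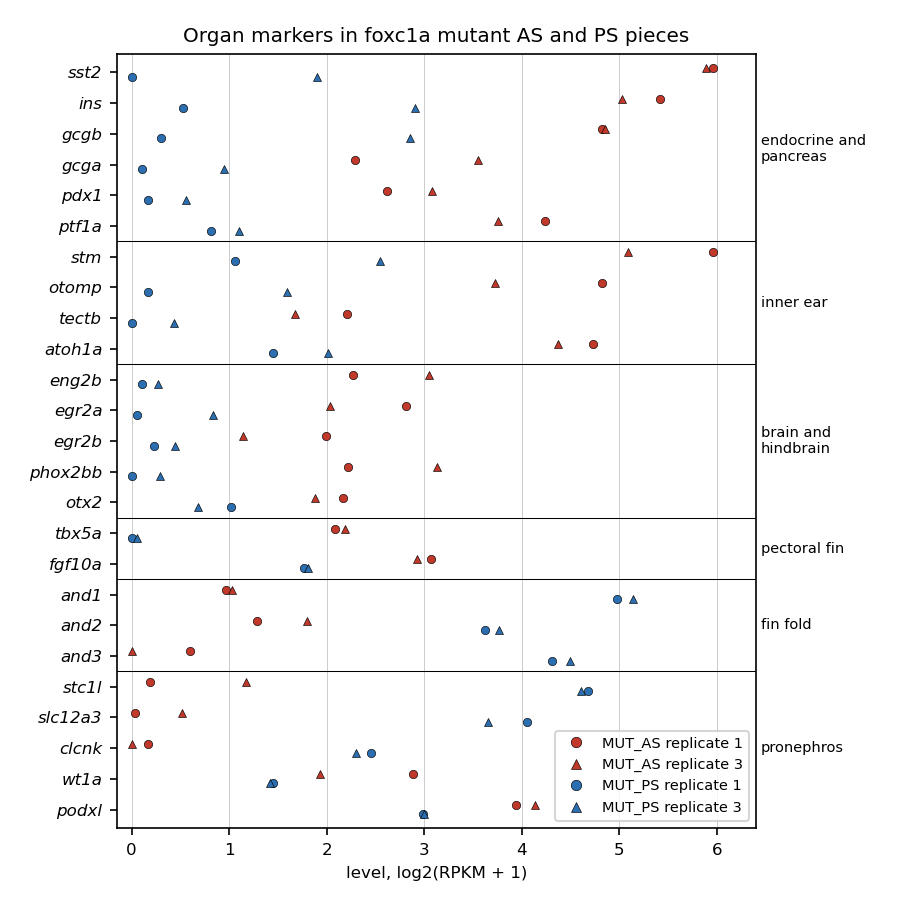
Levels of organ markers as log2(RPKM + 1) in the 4 mutant libraries, MUT_AS points just above MUT_PS points of the same gene, grouped by organ. Hormone, otolith, hindbrain and fin bud genes lie to the right in MUT_AS. The actinodins and the pronephric genes stc1l, slc12a3 and clcnk lie to the left in MUT_AS, at 2.47 RPKM or less, and are clearly detected in MUT_PS.

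Muscle genes moved the other way and made up much of the posterior RNA. The fast muscle list held 6.06% and 7.52% of all RPKM in MUT_AS, against 20.8% and 21.0% in MUT_PS. The slow muscle list held 0.514% and 0.531% in MUT_AS, against 1.34% and 1.17% in MUT_PS. Of 49 tested fast muscle genes 44 were called lower and 1 higher (median -1.63, or -2.11 after median scaling, with 45 lower and 0 higher). Of 17 slow muscle genes 13 were lower and 1 higher under both scalings (median -1.32, or -1.80). In every one of these summed shares the groups were well apart. Of all tested transcripts, taken singly, 17.5% had both MUT_AS libraries below both MUT_PS libraries.

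Most fast muscle genes fell by a like amount. The skeletal actin actc1b had 5200 and 4690 RPKM in MUT_AS, against 16900 and 16700 RPKM in MUT_PS (log2 difference -1.77, adjusted p = 0.00267). The myosin light chain mylpfa had 3030 and 3530 RPKM in MUT_AS, against 11300 and 10800 RPKM in MUT_PS (-1.75, adjusted p = 0.00267). The slow myosin smyhc1 had 129 and 96.9 RPKM in MUT_AS, against 310 and 261 RPKM in MUT_PS (-1.34, adjusted p = 0.00465). The calcium pump atp2a1 and the creatine kinase ckma were within the same range, at -1.64 and -1.62.

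One myosin heavy chain stood apart. myhz2 (NM_152982) had 8.33 and 8.32 RPKM in MUT_AS, against 476 and 336 RPKM in MUT_PS, a ratio of means of 48.8 in favour of MUT_PS (log2 difference -5.43, SE 0.22, adjusted p = 0.000305). It was the largest posterior difference of any named gene. The related myhz1.1 differed by -1.41 and myhz1.2 by -0.52 (adjusted p = 0.0713, and 0.0124 after median scaling). myhc4 differed by -2.53 (SE 0.19, adjusted p = 0.00151). Myosin heavy chains are near copies of each other and each read was assigned to a single transcript, so their separate levels are uncertain.

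Exceptions to the muscle pattern were few. pvalb8 was the fast muscle list's only higher member as deposited (0.71, adjusted p = 0.0286), and not after median scaling (0.388) or without MUT_PS replicate 1 (0.309) or 3 (0.0883). prox1a, a regulator of slow fibres that is also used in liver and nervous system, had 14.3 and 14.6 RPKM in MUT_AS, against 4.54 and 5.09 RPKM in MUT_PS (1.41, SE 0.19, adjusted p = 0.00323). tnni2b.2, a fast troponin I, had 10.9 and 7.54 RPKM in MUT_AS, against 4.71 and 6.85 RPKM in MUT_PS, with no call (0.59, adjusted p = 0.101).

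**Figure D3:**
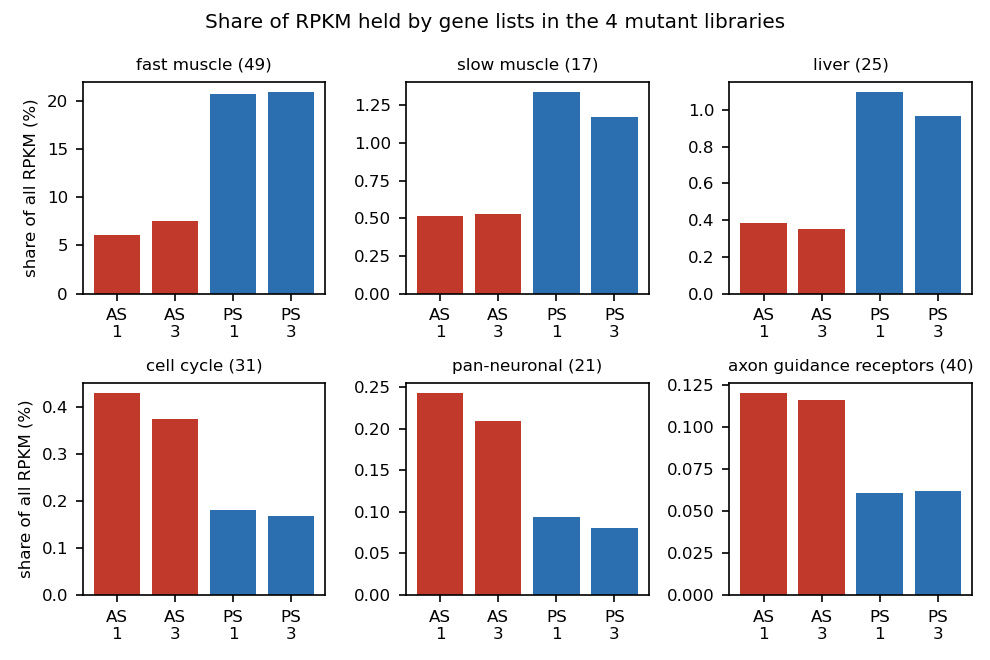
Share of all RPKM, in percent, held by 6 gene lists in each mutant library, with the number of tested genes in parentheses. MUT_PS bars stand far above MUT_AS bars for fast muscle (20.8% and 21.0% in MUT_PS), while cell cycle, pan-neuronal and axon guidance receptor genes hold the larger share in MUT_AS.

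Regulators of muscle formation differed in both directions. Of 23 tested, 8 were called higher and 4 lower (median 0.18), and 5 and 7 after median scaling (median -0.23). The share higher as deposited is close to the 35.1% of all transcripts. As deposited, 5 were higher and 3 lower without either MUT_PS library. The lower members were myf6, myod1, mef2ca and mef2cb. myf6, a myogenic factor, had 2.25 and 1.14 RPKM in MUT_AS, against 11.8 and 8.88 RPKM in MUT_PS (-2.09, SE 0.27, adjusted p = 0.00317). The determination factor myod1 had 6.29 and 11.9 RPKM in MUT_AS, against 36.6 and 22.7 RPKM in MUT_PS (-1.63, SE 0.33, adjusted p = 0.00847). Higher members included lbx1a, a marker of migrating muscle precursors and of dorsal spinal interneurons, at 23.9 and 19.3 RPKM in MUT_AS, against 2.14 and 2.91 RPKM in MUT_PS (2.68, SE 0.22, adjusted p = 0.00173). pax3a differed by 1.47 (adjusted p = 0.00354). The differentiation factor myog had no call (0.28, adjusted p = 0.391), nor had six1a (0.10), eya1 (0.30) and meox1 (-0.31, called lower after median scaling with adjusted p = 0.0228). The mef2cb call was lost without MUT_PS replicate 1 (0.116) or 3 (0.125).

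Tested genes of the segmentation and tailbud list were mostly higher in MUT_AS, at an age when these somites have long formed. Of 18 tested (32 in the table) 13 were higher and 1 lower (median 1.15), and 8 and 1 after median scaling (median 0.70). The higher ones include foxc1a and foxc1b. The list's genes her1, her7, msgn1 and the mesp genes were not among those tested. The Notch ligands dlb, dla and dld, which act in neurogenesis as well, differed by 1.61, 1.52 and 1.39. gdf11 had 8.79 and 9.58 RPKM in MUT_AS, against 1.49 and 1.92 RPKM in MUT_PS (1.92, SE 0.21, adjusted p = 0.00267). Genes also used in the tailbud varied. evx2 (1.75, adjusted p = 0.00328) and evx1 (1.18, adjusted p = 0.0116, and 0.0671 without MUT_PS replicate 3) were higher, while cdx4 was the lower member (-1.21, adjusted p = 0.0333, lost without MUT_PS replicate 1 at 0.252 or 3 at 0.0854), and ntla had 9.99 and 19.0 RPKM in MUT_AS, against 15.7 and 22.2 RPKM in MUT_PS.

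In the list of sclerotome and dermomyotome genes 8 of 20 were higher and 3 lower (median 0.48). After median scaling 5 were higher and 4 lower (median 0.02). The share higher and the median as deposited are near those of all transcripts (35.1% and 0.41). Of all transcripts 8% were lower as deposited, and 13.7% were higher and 16.2% lower after median scaling. As deposited, 0 were lower without either MUT_PS library, and 5 were higher without replicate 3. cart1, a paired-type homeobox gene of head mesenchyme, had 4.87 and 5.13 RPKM in MUT_AS, against 0.216 and 0.435 RPKM in MUT_PS (2.18, SE 0.23, adjusted p = 0.00267). twist3, of mesenchyme, had 9.65 and 11.3 RPKM in MUT_AS, against 2.9 and 2.83 RPKM in MUT_PS (1.57, SE 0.20). The sclerotome regulator pax9 was among the lower members (adjusted p = 0.0409, and 0.324 and 0.255 without MUT_PS replicate 1 and 3), and pax1a had no call (0.24, adjusted p = 0.496).

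Neural and proliferation genes were broadly higher in MUT_AS. The pan-neuronal list held 0.243% and 0.209% of all RPKM in MUT_AS, against 0.0943% and 0.0812% in MUT_PS. Of its 21 tested genes 12 were higher and 0 lower (median 0.99), and 7 and 0 after median scaling (median 0.54), while as deposited without MUT_PS replicate 3 the number higher was 6. elavl3, an RNA-binding protein of new neurons, had 147 and 100 RPKM in MUT_AS, against 33.5 and 31.9 RPKM in MUT_PS (1.86, SE 0.23, adjusted p = 0.00305). The neuronal filament gene inab had 27.4 and 17.0 RPKM in MUT_AS, against 7.47 and 7.37 RPKM in MUT_PS (1.43, adjusted p = 0.00549), and the synaptic vesicle gene syt1a differed by 1.40 (adjusted p = 0.00377). The filament genes nefmb (0.28) and neflb (0.16) and the synaptic gene snap25a (0.37) had no call.

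Progenitor genes showed the same tilt. Of 29 tested genes of spinal progenitors and glia 24 were higher and 0 lower (median 1.06), and 12 and 0 after median scaling (median 0.66), while as deposited 14 were higher without either MUT_PS library. sox3 had 148 and 159 RPKM in MUT_AS, against 54.3 and 58.4 RPKM in MUT_PS (1.43, adjusted p = 0.00308). The proneural gene ascl1a had 17.6 and 16.3 RPKM in MUT_AS, against 2.92 and 3.79 RPKM in MUT_PS (2.05, adjusted p = 0.00267). The glial filament gene gfap, at 122 and 169 RPKM in MUT_AS, against 124 and 141 RPKM in MUT_PS, did not differ beyond its spread (0.12, adjusted p = 0.678).

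Cell cycle genes held 0.429% and 0.373% of all RPKM in MUT_AS, against 0.181% and 0.167% in MUT_PS. Of 31 tested 28 were higher and 0 lower (median 1.1), and 14 and 0 after median scaling (median 0.63), while as deposited 12 were higher without MUT_PS replicate 3. The cyclin ccna2 had 104 and 75.2 RPKM in MUT_AS, against 30.5 and 27.5 RPKM in MUT_PS (1.58, SE 0.22, adjusted p = 0.0033). The replication clamp pcna had 611 and 420 RPKM in MUT_AS, against 232 and 218 RPKM in MUT_PS (1.17, adjusted p = 0.00766, 0.0462 after median scaling and 0.056 without MUT_PS replicate 3).

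Guidance cues in the territory of the fin nerves differed ligand by ligand. Of 36 tested ligand genes 13 were called higher and 1 lower (median 0.47), close to the 35.1% of all transcripts called higher and their median of 0.41, and 6 and 1 after median scaling (median 0.11). Without MUT_AS replicate 3 as many as 25 were called higher and 1 lower, and without MUT_PS replicate 1 and 3 the numbers higher were 6 and 8. The ephrins led. efnb3b had 24.3 and 21.5 RPKM in MUT_AS, against 2.78 and 4.74 RPKM in MUT_PS (2.36, SE 0.24, adjusted p = 0.00267). efnb2a had 20 and 17.3 RPKM in MUT_AS, against 6.17 and 6.14 RPKM in MUT_PS (1.45, SE 0.19, adjusted p = 0.00315). Among semaphorins, sema3bl had 7.32 and 7.85 RPKM in MUT_AS, against 1.62 and 1.71 RPKM in MUT_PS (1.69, SE 0.20, adjusted p = 0.00293).

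Several classical motor axon cues had no regional call in mutants. The slits slit1b and slit1a were called higher as deposited (1.38 and 0.88, limma adjusted p = 0.0144 and 0.0104). Neither was called after median scaling (adjusted p = 0.0555 and 0.117). The repellents sema3aa (0.23, adjusted p = 0.433), slit2 (0.27, adjusted p = 0.409) and slit3 (0.42, adjusted p = 0.111) lay near or below the median of all transcripts, as did the netrins ntn1a (0.16) and ntn1b (0.37). The chemokine cxcl12b had 30.0 and 49.5 RPKM in MUT_AS, against 41.3 and 34.9 RPKM in MUT_PS (0.02, adjusted p = 0.951). The one ligand called lower was sema3e, at 4.09 and 3.25 RPKM in MUT_AS, against 7.06 and 7.89 RPKM in MUT_PS (-0.86, SE 0.21, adjusted p = 0.0159, and 0.00648 after median scaling). Its call was lost without MUT_PS replicate 1 (0.102) or 3 (0.18).

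Receptor genes were mostly higher in MUT_AS. Over all transcripts 35.1% were higher and 8% lower as deposited, and 13.7% and 16.2% after median scaling. Of 40 tested receptor genes 26 were higher and 1 lower (median 0.88), and 13 and 1 after median scaling (median 0.47), while as deposited 10 were higher without MUT_PS replicate 1 and 11 without replicate 3. Together they held 0.120% and 0.116% of all RPKM in MUT_AS, against 0.0609% and 0.0618% in MUT_PS. The netrin receptor unc5c had 7.53 and 8.04 RPKM in MUT_AS, against 1.84 and 1.97 RPKM in MUT_PS (1.6, SE 0.20, adjusted p = 0.00308). ephb4a had 19.6 and 20.8 RPKM in MUT_AS, against 6.19 and 7.37 RPKM in MUT_PS (1.45, SE 0.19, adjusted p = 0.00317), and the slit receptor robo3 differed by 1.28 (SE 0.18, adjusted p = 0.00354). Among neuropilins, nrp2b, nrp2a and nrp1a were called higher as deposited (1.22, 0.87 and 0.75), and nrp1b showed a difference near 0 (adjusted p = 0.991). After median scaling nrp2a was not called (adjusted p = 0.107). nrp1a had no call after median scaling (adjusted p = 0.233) or without MUT_PS replicate 1 (0.182) or 3 (0.118).

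The lower receptor gene was musk, the muscle kinase of the neuromuscular synapse, at 0.978 and 0.718 RPKM in MUT_AS, against 2.48 and 2.57 RPKM in MUT_PS (-0.93, SE 0.23, adjusted p = 0.0174). Its call was lost without MUT_PS replicate 1 (0.185) or 3 (0.218). The muscle acetylcholine receptor chrna1 fell with it, at 23 and 24.9 RPKM in MUT_AS, against 77.6 and 79.0 RPKM in MUT_PS (-1.67, SE 0.18, adjusted p = 0.00267). Counts of genes marked with the axon guidance term are to be read beside the shares of all transcripts. These were 35.1% higher and 8% lower as deposited, and 13.7% and 16.2% after median scaling. Among the 97 tested genes that the deposited table itself marks with the axon guidance term (112 in the table), 51 were higher and 4 lower (median 0.66), and 25 and 8 after median scaling (median 0.23), while as deposited 25 were higher without MUT_PS replicate 1 and 23 without replicate 3.

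Motor neuron identity genes gave a mixed picture. Over all transcripts 35.1% were higher and 8% lower as deposited, and 13.7% and 16.2% after median scaling. Of 21 tested 12 were higher and 1 lower (median 0.61), and 7 and 1 after median scaling (median 0.16), while as deposited 7 were higher without either MUT_PS library. mnx1, which is also used in the pancreas, had 145 and 102 RPKM in MUT_AS, against 36.7 and 30.0 RPKM in MUT_PS (1.84, SE 0.23, adjusted p = 0.00308). isl1, used in several neuron types, had 22 and 21.0 RPKM in MUT_AS, against 8.78 and 8.25 RPKM in MUT_PS (1.24, SE 0.18, adjusted p = 0.00371). foxp1b, of the family that marks limb motor neurons in mouse and chick, had 9.39 and 12.5 RPKM in MUT_AS, against 3.17 and 3.19 RPKM in MUT_PS (1.51, adjusted p = 0.00359).

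Several genes of cholinergic motor neurons had no call. The acetylcholine vesicle transporter slc18a3a had 10.1 and 12.7 RPKM in MUT_AS, against 9.97 and 9.06 RPKM in MUT_PS (0.23, adjusted p = 0.371). mnx2a, mnx2b, lhx3 and lhx4 also had none. The progenitor gene olig2 was the one called lower, at 7.38 and 7.46 RPKM in MUT_AS, against 13 and 11.8 RPKM in MUT_PS (-0.67, SE 0.18, adjusted p = 0.0245), a call lost without MUT_PS replicate 1 (0.248) or 3 (0.17) and kept after median scaling (0.00651).

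**Figure D4:**
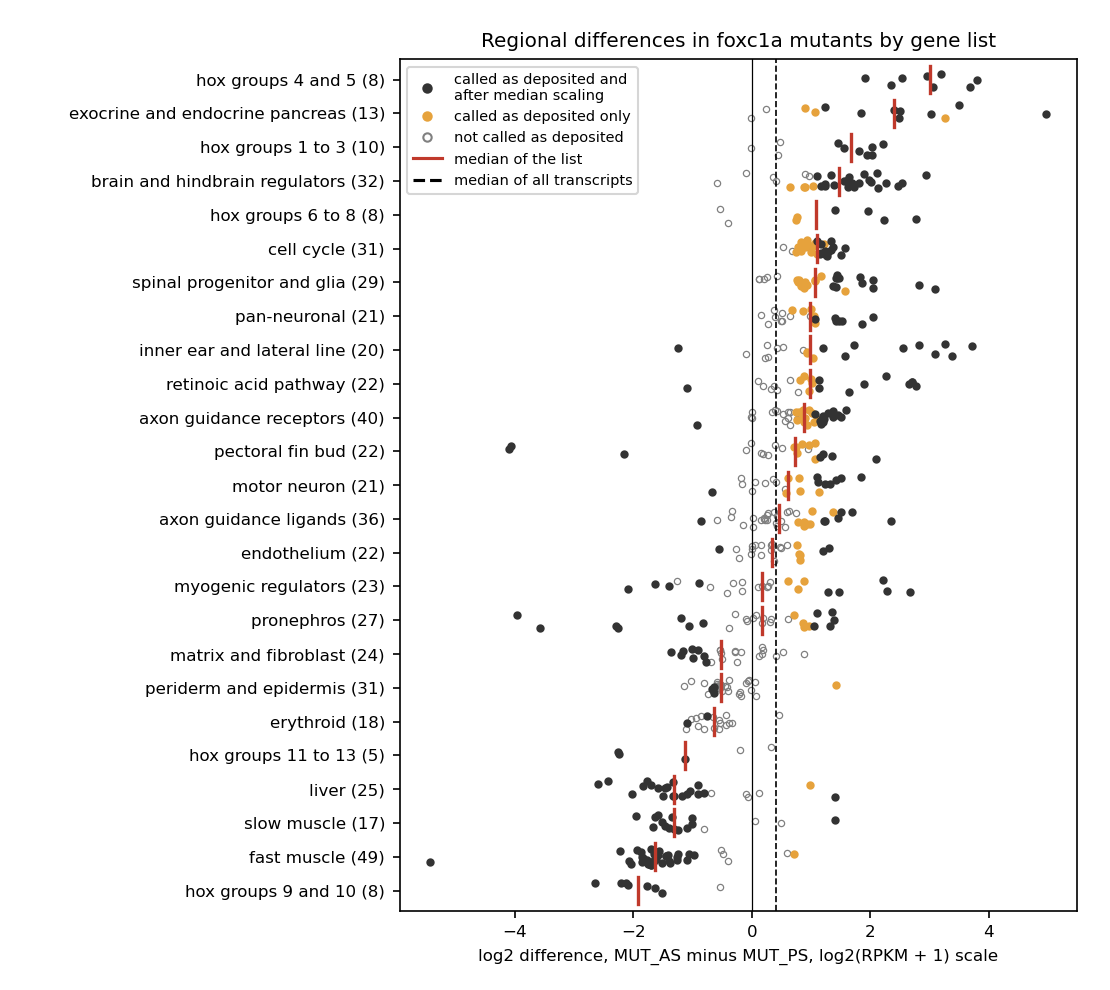
Log2 differences, MUT_AS minus MUT_PS, of the tested members of 25 gene lists, 1 point a gene, with list medians in red and the median of all transcripts (0.41) dashed. Black points were called under both scalings and orange points as deposited only. Open points were not called as deposited, and some of them were called after median scaling. hox groups 4 and 5 lie farthest to the right and fast muscle and hox groups 9 and 10 to the left.

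Kidney genes moved in both directions. Over all transcripts 8% were lower as deposited, and 13.7% were higher and 16.2% lower after median scaling. Of 27 tested pronephros genes 9 were higher, a share near the 35.1% of all transcripts, and 7 lower (median 0.17), and 5 and 8 after median scaling (median -0.28), while as deposited 4 were higher without MUT_PS replicate 1 and 3 without replicate 3. The transport genes slc12a3 and clcnk and the stanniocalcin gene stc1l were low in MUT_AS, at 1.26 RPKM or less. slc12a3, the sodium chloride cotransporter of the distal tubule, had 0.0236 and 0.434 RPKM in MUT_AS, against 15.6 and 11.6 RPKM in MUT_PS (-3.57, SE 0.26, adjusted p = 0.00151). stc1l, a stanniocalcin of the corpuscles of Stannius that bud from the distal tubule, had 0.137 and 1.26 RPKM in MUT_AS, against 24.6 and 23.4 RPKM in MUT_PS (-3.96, SE 0.33, adjusted p = 0.00173). The chloride channel clcnk had 0.123 RPKM and a listed 0 in MUT_AS, against 4.48 and 3.94 RPKM in MUT_PS (-2.30, adjusted p = 0.00267).

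On the anterior side lay slc12a1, the cotransporter of the early distal segment, with 6.67 and 9.30 RPKM in MUT_AS, against 2.44 and 2.56 RPKM in MUT_PS (1.35, SE 0.23, adjusted p = 0.00514), and the podocyte gene wt1b (1.1, adjusted p = 0.0117). The wt1b call was lost without MUT_PS replicate 1 (0.116) or 3 (0.117). The sodium pump atp1a1a.3 was lower in MUT_AS (-2.42, SE 0.25, adjusted p = 0.00267), though it has near copies among which reads could be divided.

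Plasma protein and lipid carrier genes were lower in MUT_AS. In the liver list 19 of 25 tested were lower and 2 higher (median -1.32), and 20 and 1 after median scaling (median -1.65), and it held 0.386% and 0.354% of all RPKM in MUT_AS, against 1.1% and 0.965% in MUT_PS. Apolipoproteins, also made in the yolk layer and intestine, led. apoa4 had 38.1 and 36.1 RPKM in MUT_AS, against 272 and 193 RPKM in MUT_PS (-2.60, SE 0.22, adjusted p = 0.00179). apoea had 20.2 and 19.3 RPKM in MUT_AS, against 105 and 117 RPKM in MUT_PS (-2.43, SE 0.18, adjusted p = 0.00151). fgg, a fibrinogen chain, had 12.1 and 8.37 RPKM in MUT_AS, against 30.5 and 29.0 RPKM in MUT_PS (-1.47, adjusted p = 0.00384). The regulators hnf4a (-0.09) and cebpa (0.12) had no call, and the higher members were prox1a and hhex, the call of hhex (0.98) being absent after median scaling (adjusted p = 0.121) and without MUT_PS replicate 3 (0.202).

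Calls in the list of gut and swim bladder endoderm went both ways. Among its higher members, sox2 is also in the spinal progenitor list and gata5 in the heart list. Among the lower ones, cdh17 is also in the pronephros list and sprb in the pigment cell list. Of 22 tested 10 were higher, against 35.1% of all transcripts, and 5 lower, against 8% (median 0.59, against 0.41 for all). After median scaling 5 were higher and 8 lower (median 0.17). As deposited, 3 were higher and 3 lower without MUT_PS replicate 1, and 4 and 3 without replicate 3. The smooth muscle gene tagln had 14.8 and 17.1 RPKM in MUT_AS, against 1.97 and 3.05 RPKM in MUT_PS (2.28, SE 0.23, adjusted p = 0.00267). fabp1b.1, a fatty acid carrier, had 372 and 256 RPKM in MUT_AS, against 1060 and 680 RPKM in MUT_PS (-1.46, adjusted p = 0.00753).

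Heart genes gave no single pattern. The cardiac myosin light chain myl7 had 15.4 RPKM and a listed 0 in MUT_AS, against 9.59 and 0.0510 RPKM in MUT_PS, so it followed the replicate number and not the region (0.28, adjusted p = 0.908). tnnt2a and cmlc1 showed the same. Of 19 tested 5 were higher, a smaller share than the 35.1% of all transcripts, and 3 lower (median 0.38, against 0.41 for all). After median scaling 2 and 3 passed. The lower ones under both scalings were the muscle genes popdc2 (-1.81, adjusted p = 0.00267), actc1a (-1.38, adjusted p = 0.00383) and mybpc3 (-0.80, adjusted p = 0.0135). Without MUT_AS replicate 3 the number higher was 9, and without MUT_PS replicate 1 and 3 it was 3 and 2. The mybpc3 call was lost without MUT_PS replicate 1 (0.123) or 3 (0.124).

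Blood genes also followed the replicate number. The erythroid list held 0.957% and 0.361% of all RPKM in MUT_AS, against 1.53% and 0.509% in MUT_PS. Of 18 tested genes 2 were lower and 0 higher (median -0.64, or -1.09 after median scaling). The share lower is near the 8% of all transcripts called lower as deposited, while 35.1% of all were called higher. The number lower was 4 without MUT_AS replicate 1, 0 without MUT_PS replicate 1 and 6 without MUT_PS replicate 3. The globin hbbe1.1 had 1310 and 451 RPKM in MUT_AS, against 2390 and 759 RPKM in MUT_PS, with no call (adjusted p = 0.395).

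Among myeloid genes 5 of 20 were higher and 2 lower (median 0.50), and 3 and 2 after median scaling (median 0.13). The share higher as deposited is below the 35.1% of all transcripts, and the median is near their 0.41. As deposited, 8 and 10 were higher without MUT_AS replicate 1 and 3, and 3 without either MUT_PS library. The lysozyme lyz had 138 and 103 RPKM in MUT_AS, against 19.6 and 20.7 RPKM in MUT_PS (2.51, SE 0.21, adjusted p = 0.00179). The protease gene npsn had 23.6 and 15.3 RPKM in MUT_AS, against 4.93 and 4.13 RPKM in MUT_PS (1.86, SE 0.25, adjusted p = 0.00319). Other neutrophil genes went the other way. lect2l had 7.46 and 4.52 RPKM in MUT_AS, against 22.7 and 17.5 RPKM in MUT_PS (-1.62, SE 0.26, adjusted p = 0.00454), and the peroxidase mpx differed by -1.01 (adjusted p = 0.0245, lost without MUT_PS replicate 1 at 0.0694 or 3 at 0.153). The macrophage gene mpeg1 had no call (0.48, adjusted p = 0.128).

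Matrix, notochord and skin genes leaned posterior. Over all transcripts 35.1% were higher and 8% lower as deposited, and 13.7% and 16.2% after median scaling. Of 24 tested matrix genes 8 were lower and 0 higher (median -0.52), and 15 and 0 after median scaling (median -0.99). As deposited, 14 were lower without MUT_AS replicate 3 and 2 without MUT_PS replicate 3. tnw, tenascin W, had 90 and 82.5 RPKM in MUT_AS, against 194 and 202 RPKM in MUT_PS (-1.19, SE 0.18, adjusted p = 0.00389). The notochord list had 4 of 14 lower and 2 higher (median -0.40), and 8 and 1 after median scaling. As deposited, 8 were lower without MUT_AS replicate 3, 2 without MUT_PS replicate 1 and 1 without MUT_PS replicate 3. cmn, calymmin of the notochord sheath, had 64.1 and 59.7 RPKM in MUT_AS, against 135 and 164 RPKM in MUT_PS (-1.25, SE 0.19, adjusted p = 0.00401). Skin genes depended on the scaling. Of 31 tested periderm and epidermis genes 4 were lower and 1 higher as deposited (median -0.52), and 21 lower and 0 higher after median scaling (median -0.99), and their summed share was 1.95% and 3.08% of all RPKM in MUT_AS, against 2.82% and 4.23% in MUT_PS, with overlapping groups. As deposited, 18 were lower without MUT_AS replicate 3 and 0 without either MUT_PS library.

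Of the remaining lists, that of cranial ganglia and enteric crest had the most calls for its size. Of 22 endothelial genes 6 were higher and 1 lower (2 and 2 after median scaling), of 19 pigment cell genes 1 was higher and 2 lower (0 and 6), and of 12 ionocyte genes 0 and 1 (0 and 2). Of 14 genes of cranial ganglia and enteric crest 8 were higher and 0 lower (5 and 2), against 35.1% of all transcripts higher as deposited. All 8 are also in other lists, such as phox2a, isl1, sox10 and gata2a. Its tested members of no other list, p2rx3a (-1.02), p2rx3b (-0.15) and ednrb1a (-0.50), had no call as deposited. After median scaling p2rx3a and ednrb1a were called lower (adjusted p = 0.049 and 0.0442). In the stress list 5 of 24 were higher and 3 lower (2 and 4 after median scaling), with egr2a the farthest apart among the higher ones (1.98, adjusted p = 0.00649) and hspb8 among the lower ones, at 11.4 RPKM in both MUT_AS libraries, against 43.1 and 34.8 RPKM in MUT_PS (-1.68, SE 0.20, adjusted p = 0.00285). In the list of p53 targets and cell death 5 of 15 were higher and 2 lower as deposited, and 0 and 2 after median scaling. Its share higher as deposited is near the 35.1% of all transcripts, and those of the endothelial, pigment cell, ionocyte and stress lists are below it. Without MUT_PS replicate 1 or 3 the numbers higher as deposited were 2 and 2 for endothelium, 0 and 0 for pigment cells, 5 and 5 for ganglia and crest, 2 and 3 for stress, and 1 and 0 for p53 targets. In the interrenal list 4 of 14 genes reached the minimum level and phox2a, which is also a neuronal gene, was the 1 called as deposited, higher in MUT_AS (2.26). After median scaling the steroid synthesis gene cyp17a1 was also called, lower (-0.75, adjusted p = 0.0432). The cholesterol carrier star had 0.558 and 0.650 RPKM in MUT_AS, against 0.547 and 0.620 RPKM in MUT_PS.

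Most mutant calls were also called in siblings. In the 4 sibling libraries, fitted in the same way, 6993 transcripts were called (64.2%), 5527 higher and 1466 lower in SIB_AS, and the spread between replicates was smaller, with a standard deviation of 0.181 in SIB_AS and 0.185 in SIB_PS. Of the mutant calls 4460 (95.1%) were called in the same direction in siblings, which is 63.8% of the sibling calls, and 3 were called in the opposite direction. Across 10889 transcripts the regional differences in mutants and siblings correlated with r = 0.915, as a description, since transcripts are not independent replicates. The median of hox groups 4 and 5 was 3.01 in mutants and 2.32 in siblings, that of groups 9 and 10 -1.93 in mutants and -2.13 in siblings, that of fast muscle -1.63 in mutants and -1.27 in siblings, and that of guidance receptors 0.88 in mutants and 0.85 in siblings. foxc1a itself differed by 1.0 in mutants and 1.09 in siblings.

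The difference between the regional effects was tested as an interaction of region and genotype over all 8 libraries. In limma 0 of 10889 transcripts were called, with 298 at an unadjusted p under 0.05. Leaving out MUT_AS replicate 1 gave 199 calls (46 higher and 153 lower) and leaving out MUT_AS replicate 3 gave 11 (4 and 7). The other settings tried gave 0. The smallest p belonged to lyz, with an interaction of 1.80 (SE 0.25, adjusted p = 0.119). lyz had 138 and 103 RPKM in MUT_AS and 19.6 and 20.7 RPKM in MUT_PS, against 85.2 and 90.3 RPKM in SIB_AS and 49.5 and 57.3 RPKM in SIB_PS.

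None of the other genes nearest to an interaction reached an adjusted p below 0.857. apoa4 had 38.1 and 36.1 RPKM in MUT_AS and 272 and 193 RPKM in MUT_PS, against 104 and 83.4 RPKM in SIB_AS and 206 and 119 RPKM in SIB_PS (interaction -1.85, SE 0.37, adjusted p = 0.857). cyp26a1 had a regional difference of 1.90 in mutants and 0.86 in siblings (interaction 1.04, SE 0.23, adjusted p = 0.857). hoxb4a had one of 3.69 in mutants and 2.65 in siblings (interaction 1.03, adjusted p = 0.867), and hoxc5a one of 3.2 in mutants and 2.23 in siblings. These p-values do not show that the regional effects are equal in the 2 genotypes.

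**Figure D5:**
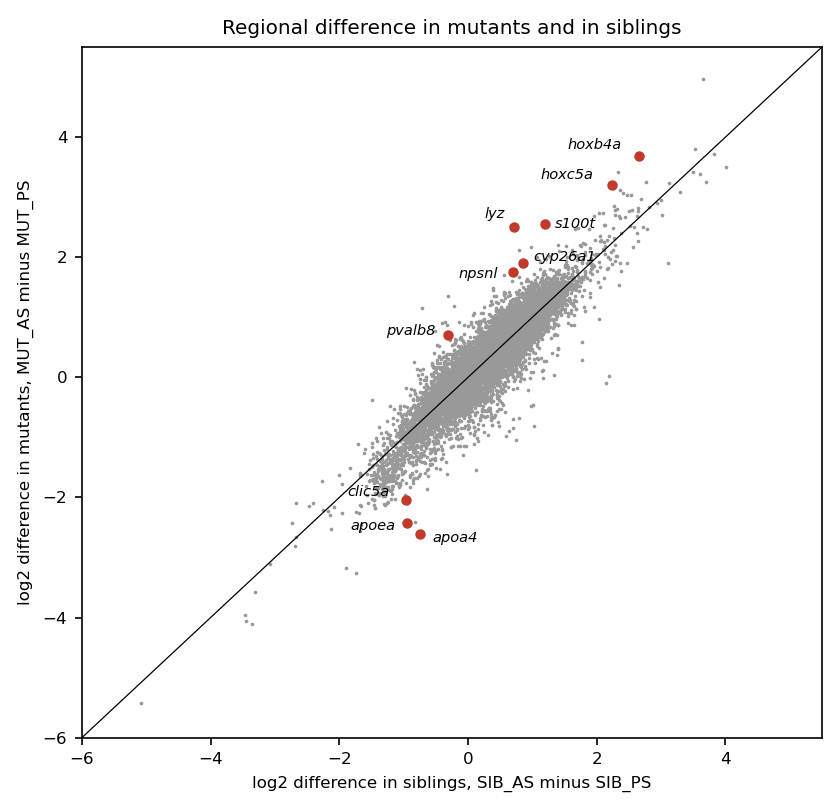
Log2 difference between anterior and posterior pieces of each tested transcript in mutants (vertical axis, MUT_AS minus MUT_PS) against siblings (horizontal axis, SIB_AS minus SIB_PS), with the line of equal values. Red points mark the 10 named genes with the smallest interaction p, of which lyz lies above the line (2.51 in mutants) and apoa4 below it (-2.60 in mutants).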

How the data were processed

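Of 8 trunk libraries 4 are compared here. Per the labels' protocols, poly(A) RNA with an integrity number of 8 or more went into stranded TruSeq libraries and was read in pairs on an Illumina HiSeq. The design text names RUM (version not given in the sources used here) and the Zv9 (danRer7) genome for alignment, with every read given to 1 transcript. The authors deposited 1 table of log2(RPKM + 1) values per transcript, per the file headers, with no counts, so the depth is known only relatively. The authors' 4 deposited ratio columns were not used. Of 14809 rows, 228 fill rows at the end were dropped, which left 14581 transcripts.

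Those with a mean of 1 RPKM or more over the 8 libraries entered limma 3.58.1 (trend and robust options, statmod 1.5.0, R 4.3.3) on log2(RPKM + 1), with only the 4 mutant libraries and a mean for each group, since MUT_AS spreads more than the other groups. Calls are Benjamini-Hochberg adjusted p under 0.05 over all tested transcripts, with no fold minimum. Log2 differences understate ratios of low values. The fit was tested on simulated data. Alternatives were scaling to one median, scaling outside the muscle lists, a pseudocount of 0.1, other filters, all 8 libraries, a weight per group, a replicate block and each library left out. Median scaling with a library left out was added after seeing the data. Coordinates and sequences were not used here.

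The members and the 38 gene lists were chosen with earlier results of these data known. Named genes are foxc1a, foxc1b, the 15 called genes with the largest difference in each direction at a mean of 5 RPKM or more, up to 6 called members a list in each direction and the 10 with the smallest interaction p, 245 genes in all, of which the text gives a part. Other list members named were chosen after their values were seen. List symbols were matched to the table's symbols, then through a reference annotation of another build.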

Additional observations from a re-analysis of the deposited data

How the results depend on the processing

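Among 245 named genes the call as deposited was kept by 211 after median scaling, 227 after scaling outside the muscle lists, 242 with a pseudocount of 0.1, 220 with no filter, all 195 that passed a minimum of 5 RPKM, 243 with the spread of all 8 libraries and 232 with a weight per group. It was kept by 233 and 234 with MUT_AS replicate 1 or 3 left out, and by 182 and 180 with MUT_PS replicate 1 or 3 left out. Most named genes were picked as called genes with the largest differences, so these counts do not stand for all calls. Of all 4692 calls, 2362 were kept after median scaling. The difference of the named genes kept its sign in all of these settings. The only change of sign came with median scaling and MUT_AS replicate 3 left out together, added after seeing the data, where casp3a stood at -0.04 (limma adjusted p = 0.876). Of 78 list counts 39 moved by over 1.5 times after median scaling, 35 without MUT_PS replicate 1, 42 without MUT_PS replicate 3, 14 and 16 without MUT_AS replicate 1 or 3, and 2 to 15 under the other planned settings.

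The number of calls, 4692 as deposited, ran from 1609 to 6747 when 1 mutant library was left out, from 1225 to 5326 for those higher in MUT_AS and from 382 to 1421 for those lower. Median scaling gave 1491 higher and 1765 lower, and scaling outside the muscle lists 2406 higher. With median scaling, leaving out MUT_AS replicate 1 gave 4617 calls (2096 higher and 2521 lower), MUT_AS replicate 3 gave 5469 (2810 and 2659), MUT_PS replicate 1 gave 1538 (452 and 1086) and MUT_PS replicate 3 gave 1356 (455 and 901). The interaction gave 0 to 199 calls when a library was left out. Depth limits chiefly the low transcripts of MUT_AS replicate 3.

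With the title ending as a replicate block the fit made 5514 calls, 4386 higher and 1128 lower, and 241 of 245 named genes kept theirs. Deviations of same-numbered libraries correlated with r = 0.22 between MUT_AS and MUT_PS and from -0.09 to 0.52 over all pairs of groups. With 2 libraries a group this does not show that the numbers pair the samples, and they were treated as names.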

Other observations

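Some of the largest posterior differences belong to genes of no list described above. c1qtnf9, a secreted protein of the C1q and TNF related family, had 1.40 and 2.67 RPKM in MUT_AS, against 26.2 and 22.8 RPKM in MUT_PS (log2 difference -3.10, SE 0.25, limma adjusted p = 0.00173). apom, an apolipoprotein of high-density particles, had 14.1 and 5.35 RPKM in MUT_AS, against 60.3 and 53.4 RPKM in MUT_PS (-2.56, SE 0.38, adjusted p = 0.00377). cyp4t8, a cytochrome P450, had 2.7 and 0.465 RPKM in MUT_AS, against 14.0 and 9.94 RPKM in MUT_PS (-2.46, SE 0.42, adjusted p = 0.00525). Among genes marked with the axon guidance term in the deposited table, smn1, the survival motor neuron gene, had 25.1 and 22.7 RPKM in MUT_AS, against 7.23 and 5.42 RPKM in MUT_PS (1.77, SE 0.21, adjusted p = 0.00279). All 4 genes kept their direction and call after median scaling. For the lower genes that scaling could hardly remove the call, since all 871 transcripts called lower as deposited kept theirs.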
